A study of Orbicella faveolata with 18 samples.

Results

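The clone AOSF997 is a spotted coral cDNA that the study annotated as peroxidasin-like protein. It is 1 of 1218 clones with a value in the series table and 1 of the 1099 clones that had at least 2 arrays in every condition. The clone was selected on its own measured log2 ratios, for a large and graded increase with temperature 48 hours after fertilization. Its differences between temperatures at 48 hours are therefore given as a description, without a test, while its values at 12 hours played no part in the choice and were held against the technical error.

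The samples were embryos of the reef-building coral Orbicella faveolata (Montastraea faveolata in the article), raised at 27.5, 29.0 or 31.5°C and sampled 12 and 48 hours after fertilization. Gametes came from multiple colonies and were fertilized together at 1 common temperature before the embryos were moved to the treatments, so all 6 conditions share parents and first hours of development, and the embryos held no algal symbionts. The 3 arrays of a condition are technical and come from 1 RNA isolation of pooled embryos, so that each difference sets 1 RNA sample against 1 other and the errors hold hybridization error only. Every array set the sample, in Cy5, against a pooled reference, in Cy3, without exchange of the dyes, and a log2 ratio above 0 means more signal in the sample than in the pool. The coolest temperature, 27.5°C, was the control of each time point, and the source names of the labels give other, whole-degree temperatures in place of those of the titles used here.

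Peroxidasins are secreted heme peroxidases, first described in Drosophila, that combine a peroxidase domain with domains typical of extracellular matrix and adhesion proteins. They use hydrogen peroxide as their substrate, and in flies and vertebrates they form the sulfilimine bonds that crosslink collagen IV in basement membranes. In corals, heat is known to raise the level of reactive oxygen species, and peroxide-consuming enzymes are commonly followed as markers of that stress. The annotation of AOSF997 is a similarity match of the study, and the signal of a spotted cDNA is that of all transcripts which hybridize to it. Since whole embryos were homogenized, a larger number of cells with the transcript and more transcript per cell cannot be told apart.

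Few clones were missing outside 1 condition, while the spread of the log2 ratios differed between some arrays of a condition. Their median absolute deviation was 0.39 on replicate 1 of 31.5°C after 12 hours, against 0.26 and 0.25 on replicates 2 and 3. On replicate 1 of 29.0°C after 48 hours it was 0.31, against 0.19 and 0.21. The median log2 ratio of an array lay between -0.08 and 0.05, and an array lacked at most 26 clones, except at 27.5°C after 12 hours, where up to 241 were missing. Those arrays had 1616 to 2067 spots with usable signal in both channels, against 2583 to 3365 on the others. The file headers name another image-analysis user for 2 of them, replicates 1 and 2, than for the other 16 arrays. The differences of AOSF997 that rest on these 2 are given with and without them. Values of the other named clones that rest on them are given with them only. AOSF997 had a value on all 18 arrays. Its technical SD over the conditions was 0.28, larger than that of 79.7% of the tested clones, whose median was 0.20.

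After 12 hours AOSF997 was below the pool at every temperature. At 27.5°C its log2 ratios were -0.03, -0.46 and -0.90 (mean -0.46 ± 0.43, SD, n = 3 arrays). At 29.0°C they were -1.03, -0.67 and -0.26 (mean -0.65 ± 0.39, SD, n = 3). At 31.5°C they were -0.86, -0.73 and -0.75 (mean -0.78 ± 0.07, SD, n = 3). All 9 arrays were negative, and the arrays of the 3 temperatures overlapped, with the widest scatter at the coolest temperature and the narrowest at the warmest.

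After 48 hours the level of AOSF997 followed temperature step by step. At 27.5°C the log2 ratios were -0.11, -0.06 and -0.05 (mean -0.07 ± 0.04, SD, n = 3). At 29.0°C they were 1.26, 0.76 and 1.19 (mean 1.07 ± 0.27, SD, n = 3). At 31.5°C they were 3.88, 3.47 and 3.63 (mean 3.66 ± 0.21, SD, n = 3). The signal was close to that of the pool at 27.5°C, with a ratio of 0.951, was 2.10 times that of the pool at 29.0°C and 12.6 times at 31.5°C, and no array of a warmer sample reached down to an array of a cooler one. This order of the arrays, 27.5 below 29.0 below 31.5°C, was seen in 32 of 1184 clones with values at 48 hours, or 2.7%.

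**Figure D1:**
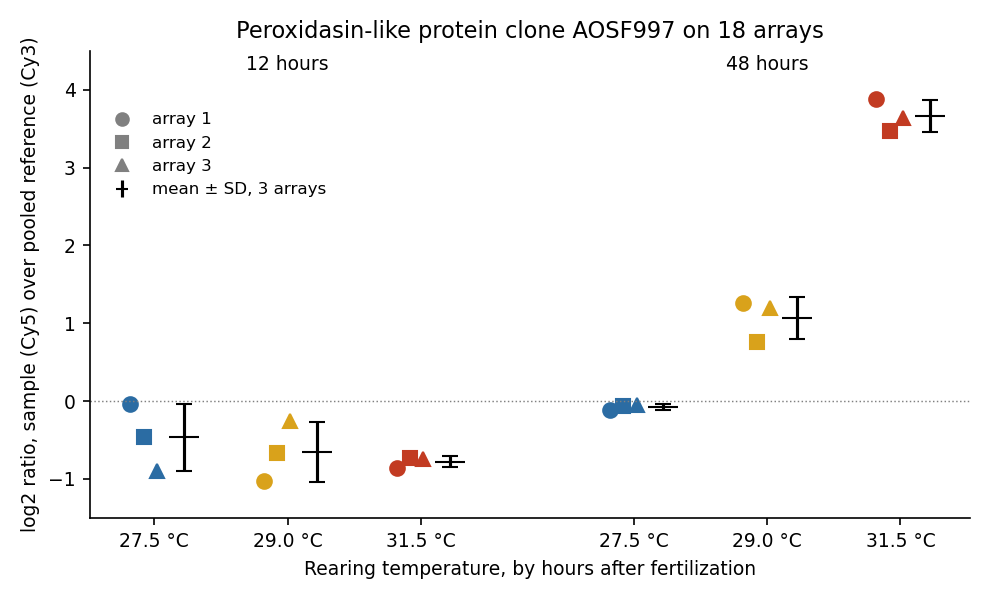
Log2 ratio of the sample (Cy5) over the pooled reference (Cy3) for AOSF997 on each of the 18 arrays, by rearing temperature in °C and hours after fertilization, with the mean and SD of the 3 technical arrays. The 9 arrays of 12 hours lie between -1.03 and -0.03, and the 3 groups of 48 hours are separate, with means of -0.07, 1.07 and 3.66.

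In order of level, 48 hours at 31.5°C was followed by 48 hours at 29.0°C, 48 hours at 27.5°C, and 12 hours at 27.5, 29.0 and 31.5°C. Neighbours in this order differed beyond the technical error only among the 3 highest levels, and the order at 12 hours was not settled. The 3 highest levels are those of 48 hours, for which the clone was chosen, so nothing is read from their separation. Each condition mean had a 95% interval of 0.35 to either side, and 2 conditions count as different when these intervals do not overlap, that is, when their means are more than 0.69 apart. The intervals at 48 hours were 3.31 to 4.01 at 31.5°C, 0.72 to 1.42 at 29.0°C and -0.42 to 0.27 at 27.5°C. At 12 hours they were -0.81 to -0.12 at 27.5°C and -1.13 to -0.43 at 31.5°C, and that of 29.0°C lay between and overlapped both.

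None of the 3 differences at 12 hours met the interval criterion. The log2 difference of 29.0 against 27.5°C was -0.19 (95% interval -0.68 to 0.30). The interval rests on the technical SD of 0.28, which was taken over all conditions. Both samples scattered more than that, with SDs of 0.43 at 27.5°C and 0.39 at 29.0°C. The upper bound of 1.23-fold between these RNA samples therefore understates the scatter of their own arrays. Of all tested clones, 6.82% were called higher and 11.1% lower in that comparison. The difference of 31.5 against 27.5°C was -0.32 (-0.81 to 0.17), with an upper bound of 1.13-fold that rests on the same SD of 0.28. Here 7.46% of clones were called higher and 9.28% lower. For 31.5 against 29.0°C the difference was -0.13 (-0.62 to 0.36), where 17.0% of clones were called in either direction. Ranked from the largest increase to the largest decrease among 1099 clones, AOSF997 stood at 740, 897 and 677, within the bulk of the clones. Leaving out 1 array could turn the sign of the first and the last of these differences, to 0.03 when replicate 1 of 27.5°C was dropped, and to 0.07 when replicate 3 of 29.0°C was. With the 16 arrays of 1 image-analysis user, where 27.5°C after 12 hours kept 1 array, the first and the second differences were 0.24 and 0.12 (limit 0.82), so that no direction at 12 hours was stable.

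At 48 hours the same comparisons gave the values for which the clone was selected. Between 27.5 and 29.0°C the difference was 1.14 (2.21-fold, 95% interval 1.57 to 3.10-fold), the increase ranked 3 of 1099 clones. Between 29.0 and 31.5°C it was 2.59 (6.02-fold, 4.29 to 8.45-fold), and across the whole range it was 3.73 (13.3-fold, 9.47 to 18.7-fold), both the largest of all clones. The increase per degree was 0.76 on the log2 scale over the lower step and 1.04 over the upper one, and whether these slopes differ was not tested. The comparisons with 27.5°C share the arrays of that sample. All 3 differences were past the limit of 0.69, which the choice of the clone entails and from which nothing is read. Over all clones 2.64%, 6.92% and 8.64% met the interval criterion for increases in these comparisons, and 5.19% at 29.0°C and 14.6% at 31.5°C met it for decreases, both against 27.5°C. With linear ratios averaged in place of log2 ratios, the intervals of 29.0 and 27.5°C overlapped (log2 difference 1.16), and those of the other comparisons did not.

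The separation at 48 hours was also seen array by array. The closest arrays of 27.5 and 29.0°C were 0.81 apart, those of 29.0 and 31.5°C 2.21, and those of 27.5 and 31.5°C 3.52. Complete separation with the warmer sample above was found in 11.3%, 22.1% and 30.9% of the clones with values, while the median size of a difference over all clones was 0.14, 0.22 and 0.25. AOSF997 thus shared separate arrays with many clones and differed from them in size, which is the quantity it was chosen for.

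**Figure D2:**
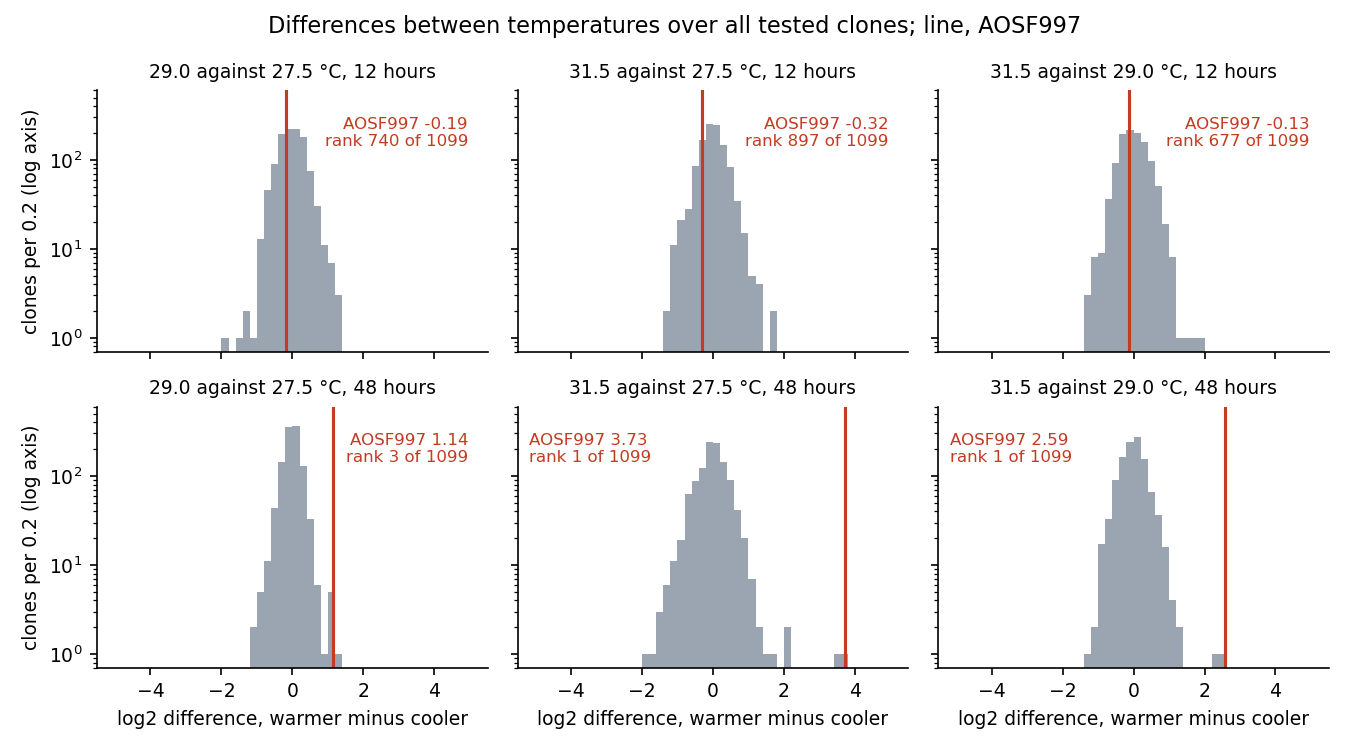
Histograms of the log2 difference between temperatures, warmer minus cooler, over the 1099 tested clones, with the number of clones on a log axis, for 3 pairs of temperatures at 12 hours (top) and 48 hours (bottom). The line marks AOSF997, which lies within the bulk at 12 hours (-0.19, -0.32 and -0.13) and at the upper end at 48 hours (1.14, 3.73 and 2.59).

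Next to AOSF997 in these rankings stood few clones, most without annotation. For 29.0 against 27.5°C the clone above it was AOSF1420, a hypothetical protein, with 1.16 (limit of the interval criterion 0.50, met), and the clone below it was AOSF432, without annotation, with 1.14 (limit 1.59, not met). For 31.5 against 27.5°C AOSF432 followed with 3.49 and AOSF1420 with 2.20, both meeting the criterion. For 31.5 against 29.0°C the next were AOSF432 with 2.35, which met it, and AOSF1272, without annotation, with 1.26, which did not (limit 3.27). AOSF997 and AOSF432 were the only clones of the 1099 whose difference between 31.5 and 27.5°C was above 3, and the gap between them lay within the technical error of AOSF432.

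Few clones were called for a graded increase. Counted with the interval criterion, 5 of 1099 clones (0.455%) were called higher both from 27.5 to 29.0°C and from 29.0 to 31.5°C at 48 hours. Besides AOSF997, with steps of 1.14 and 2.59, these were AOSF1420 with 1.16 and 1.04, AOSF621 with 1.23 and 0.87, AOSF778 with 0.42 and 0.55, and AOSB399 with 0.41 and 0.59. AOSF621 and AOSB399 were named after this count was seen. AOSF997 had the largest upper step of the 5, and its lower step was within 0.10 of those of AOSF1420 and AOSF621.

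Between the time points AOSF997 differed least at the coolest temperature and most at the warmest. At 27.5°C the log2 difference of 48 against 12 hours was 0.39 (1.31-fold, 95% interval -0.10 to 0.88), beside a limit of 0.69, and the arrays overlapped. Without the 2 arrays of the other image-analysis user, with 1 array at 12 hours, it was 0.823, just past its limit of 0.817, so that its side of the limit rests on those 2 arrays. At 29.0°C it was 1.72 (3.30-fold, 1.23 to 2.21) and ranked 44 of 1099 clones, and at 31.5°C it was 4.44 (21.7-fold, 3.95 to 4.93) and ranked 3. In both warmer treatments all arrays of 48 hours lay above those of 12 hours, as in 32.8% of clones at 29.0°C and 32.4% at 31.5°C. All 3 differences include values at 48 hours for which the clone was chosen and are a description without a test, and whether the change with temperature differed between the time points was not tested.

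Other clones of the response to oxidative stress changed in both directions. The list of 13 further clones is that of the study's own annotation tables, which were made from clones that had changed on these samples, so its counts are not independent evidence of a direction. At 48 hours and 31.5°C, 4 of the 13 were raised against 27.5°C, 5 were lowered and 4 were neither, with a median of -0.26 against -0.01 over all clones. At 29.0°C 4 were raised, 1 was lowered and 8 were neither, with a median of 0.07 against 0.00. These shares can be read beside the 8.64% raised and 14.6% lowered of all clones at 31.5°C, and the 2.64% and 5.19% at 29.0°C.

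Catalase (AOSF550), which splits hydrogen peroxide into water and oxygen and so uses the substrate of peroxidasins, was the clone of this list with the largest increase. At 48 hours its log2 ratios were 0.19, 0.08 and 0.16 at 27.5°C, 1.09, 1.11 and 1.33 at 29.0°C, and 1.32, 1.34 and 1.38 at 31.5°C. Catalase thus rose by 1.03 (2.05-fold, limit 0.50) from 27.5 to 29.0°C, close to the 1.14 of AOSF997. From 29.0 to 31.5°C it differed by 0.17, with overlapping arrays, where AOSF997 differed by 2.59. At 12 hours catalase was below the pool on all arrays, from -1.51 to -0.80, and like AOSF997 it was called at neither warmer temperature (-0.31 and -0.14).

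The other raised clones of the list differed at 48 hours by less than catalase. Soma ferritin (CAON1101), an iron storage protein, rose by 0.45 at 29.0°C and 0.49 at 31.5°C (1.37 and 1.40-fold), and cytochrome p450 (CAON1879), a monooxygenase, by 0.34 and 0.44 (1.27 and 1.35-fold). A glutathione S-transferase (AOSF483), which couples glutathione to electrophiles, rose at 29.0°C by 0.65, differed by 0.20 at 31.5°C (limit 0.43) and was lower at 31.5 than at 29.0°C, by -0.45. Cytochrome c (AOSC785), the electron carrier of mitochondria, rose at 31.5°C by 0.56, with 0.21 at 29.0°C (limit 0.50).

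The lowered clones of the list included further enzymes of redox metabolism. Glutathione S-transferase Mu (AOSF1447) fell by 0.58 at 29.0°C and by 1.17 at 31.5°C (2.24-fold lower) at 48 hours, a graded change in the direction opposite to that of AOSF997. Malate dehydrogenase (AOSF1222), of the citric acid cycle, fell by 0.87 at 31.5°C, ferritin (CAON969) by 0.67, the 2Fe-2S ferredoxin clone (AOSC403) by 0.40 and sulfhydryl oxidase (AOSF787), which forms disulfide bonds, by 0.26. The members annotated as ferritin therefore moved in opposite directions at 31.5°C, as the soma ferritin clone was raised.

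At 12 hours, when AOSF997 was called at neither temperature, 3 of the 13 clones were lowered and none was raised at 29.0°C by the interval criterion or by limma (median -0.18, all clones -0.02). At 31.5°C 3 were raised and 3 lowered (median -0.05, all clones -0.02). Of all clones, 6.82% were raised and 11.1% lowered at 29.0°C, and 7.46% and 9.28% at 31.5°C. Raised at 31.5°C were thioredoxin (AOSF1373), a disulfide reductase, by 0.58 with 2 arrays at 27.5°C, cytochrome p450 (CAON1879) by 0.41 and sulfhydryl oxidase (AOSF787) by 0.33. Methionine sulfoxide reductase (AOSC865), which repairs oxidized methionine, fell by 0.49 at 29.0°C and 1.02 at 31.5°C, the largest change of the list at this time. Malate dehydrogenase (AOSF1222) was lowered at both temperatures, with -0.48 and -0.50, glutathione S-transferase Mu (AOSF1447) at 29.0°C with -0.62, and a peroxisomal enoyl-CoA isomerase (AOSC790), of fatty acid oxidation, at 31.5°C with -0.53. The 3 clones raised at 12 hours and 31.5°C had only cytochrome p450 in common with the 4 raised at 48 hours and 31.5°C. Of all clones, 7.46% and 8.64% were raised in these comparisons. How many of all clones were raised in both was not counted, so nothing is read from this overlap.

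The clones annotated to extracellular matrix or adhesion, where peroxidasins act in other animals, were few, and none was called at 48 hours. Of 4 such clones 3 could be tested, as AOSF636, similar to the adhesion protein Sidekick-1, had 1 array at 27.5°C after 12 hours. When 48 hours had passed, the differences of 31.5 against 27.5°C were 0.28 for a procollagen type V alpha 3 clone (AOSC914, limit 0.28), a fibrillar collagen, 0.23 for the membrane protein clone DGCR2/IDD (AOSB564) and 0.06 for fibropellin (CAON491), an extracellular matrix protein of sea urchin embryos. None met the criterion at either temperature after 48 hours, nor limma's threshold, while 1 to 2 of the 3 were called at 31.5°C when arrays were centred or scaled. Of all clones, 2.64% were raised and 5.19% lowered at 29.0°C after 48 hours, and 8.64% and 14.6% at 31.5°C. With 3 clones nothing is read from the absence of calls. Fibropellin was lowered after 12 hours, with -0.72 at 29.0°C and -0.48 at 31.5°C, where 11.1% and 9.28% of all clones were lowered.

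**Figure D3:**
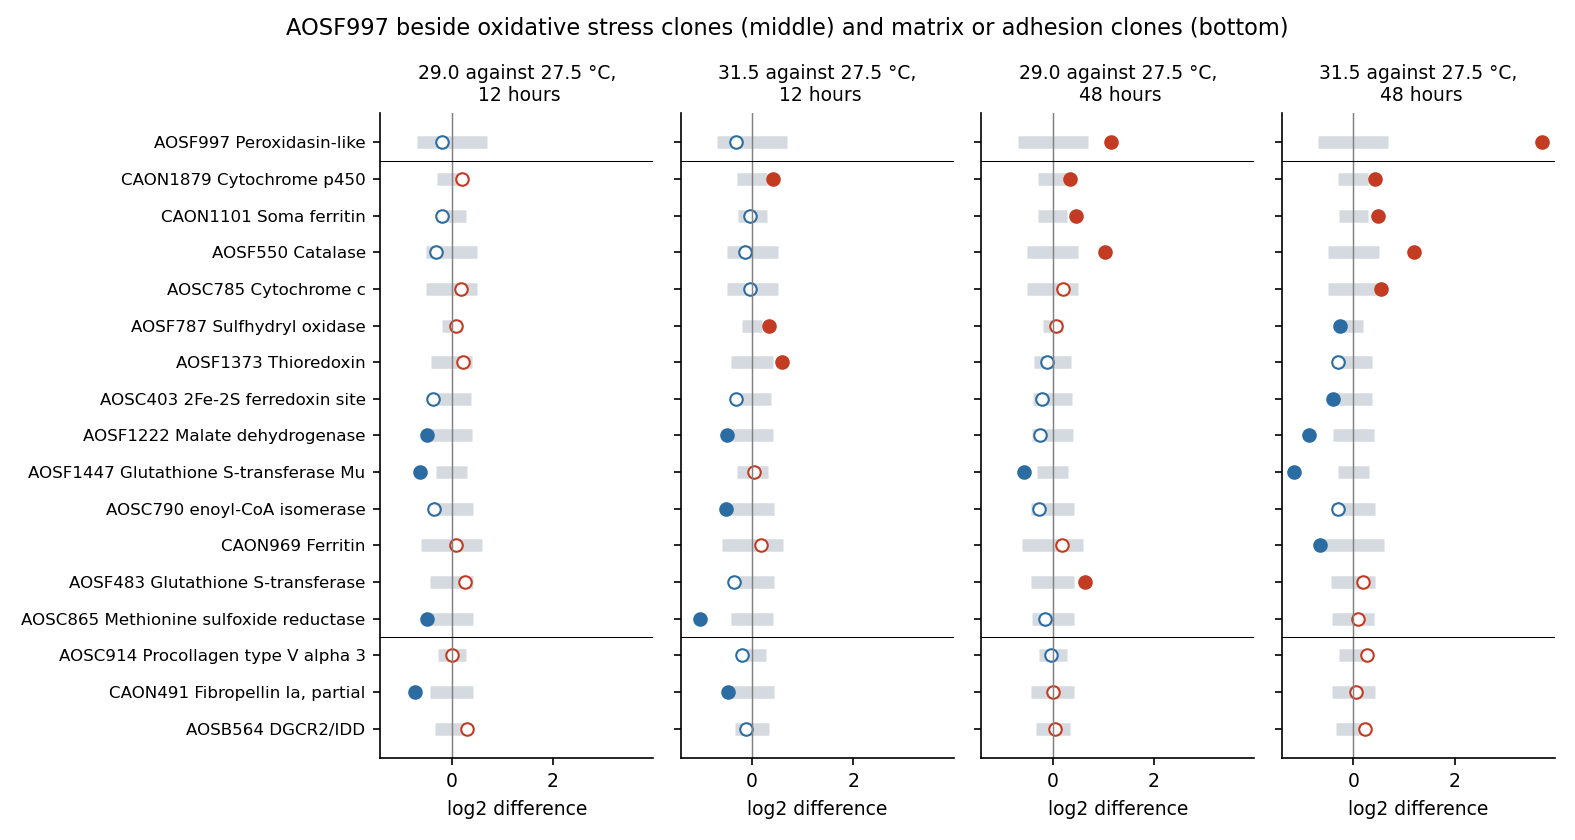
Log2 difference of 29.0 or 31.5°C against 27.5°C at 12 and 48 hours for AOSF997 (top), 13 oxidative stress clones (middle) and 3 matrix or adhesion clones (bottom). Grey bars give the limit of the interval criterion for each clone to either side of 0, filled points are called differences and open points are not, red above and blue below 0. AOSF997 at 31.5°C after 48 hours (3.73), a value for which it was chosen, lies beyond all others, of which catalase is the highest (1.20).

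Several clones correlated with AOSF997 over the 6 conditions at a smaller amplitude. The measure was Pearson's correlation of the 6 condition means, a description over 6 points that come from 6 RNA samples, share the reference and, for AOSF997, are dominated by 1 condition. The 5 most similar clones were AOSF778 (0.970), CAON1821 (0.968), AOSC481 (0.965), AOSF722 (0.962) and CAON1330 (0.959). A correlation above 0.9 was found for 18 clones, and a negative one stronger than 0.9 in size for 12. CAON1821 is annotated as a CCHC-type zinc finger protein, CAON1330 matches a predicted protein of the sea anemone Nematostella vectensis, and the others had no annotation in the sources used here. Their condition means spanned 1.31, 0.46, 0.86, 0.83 and 0.62, where those of AOSF997 spanned 4.44, ranked 3 of 1099 clones (median 0.83). CAON1821 lacked the lower step at 48 hours, as its 29.0 and 27.5°C means differed by 0.0006.

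AOSF778 was alike by arrays as well as by means. Its log2 ratios at 48 hours were 0.06, 0.14 and 0.18 at 27.5°C, 0.64, 0.44 and 0.56 at 29.0°C, and 1.07, 1.06 and 1.15 at 31.5°C, again without overlap. At 12 hours they were 0.39, 0.11 and 0.05 at 27.5°C, 0.22, 0.03 and -0.25 at 29.0°C, and -0.39, -0.15 and -0.12 at 31.5°C. At 12 hours the means of AOSF778, like those of AOSF997, were highest at 27.5 and lowest at 31.5°C, an order that for AOSF997 rests on the arrays named above. The correlation over all 18 arrays was 0.93, the highest among the 918 clones measured on all of them, which do not include AOSF432. From 27.5 to 31.5°C at 48 hours AOSF778 differed by 0.97 (limit 0.37), CAON1821 by 0.38 (0.38) and AOSC481 by 0.56 (0.48), all called, while AOSF722 with 0.59 (0.67) and CAON1330 with 0.45 (0.47) were not.

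By distance, which takes amplitude into account, other clones were nearest. The clone with the smallest Euclidean distance between centred condition means was AOSF432, at 1.59, followed by AOSF621 at 1.67, catalase (AOSF550) at 2.04, AOSF1272 at 2.06 and AOSF1420 at 2.16. AOSF432 reached 3.34, 3.52 and 2.96 at 31.5°C after 48 hours, from 0.86, 0.69 and 1.24 at 29.0°C and -0.09, -0.35 and -0.20 at 27.5°C. Its correlation with AOSF997 over the means was 0.924. At 12 hours it was measured on 2 arrays at 27.5°C (0.93 and 0.40), and its arrays at 31.5°C were 2.10, -0.30 and -0.25, which gave it a technical SD of 0.63. The values of AOSF432 at 48 hours lay close to those of AOSF997, but it was named for its rank next to AOSF997 at that time. Nothing is therefore read from this closeness. The values of AOSF432 at 12 hours scattered widely.

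The pattern opposite to that of AOSF997 was held by AOSF761, similar to a proapoptotic caspase adaptor protein, and AOSC979, both with a correlation of -0.96. From 27.5 to 31.5°C at 48 hours AOSF761 fell by 0.73 (limit 0.37), and AOSC979 differed by -0.39 (limit 0.44), which did not meet the criterion. The choice of similar clones depended on the measure, as 1 of the 5 highest by correlation (CAON1821) was among the 9 clones that tied at a rank correlation of 1, 1 (AOSF778) was among the 5 highest by correlation over the arrays, and 0 were among the 5 nearest by distance.

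**Figure D4:**
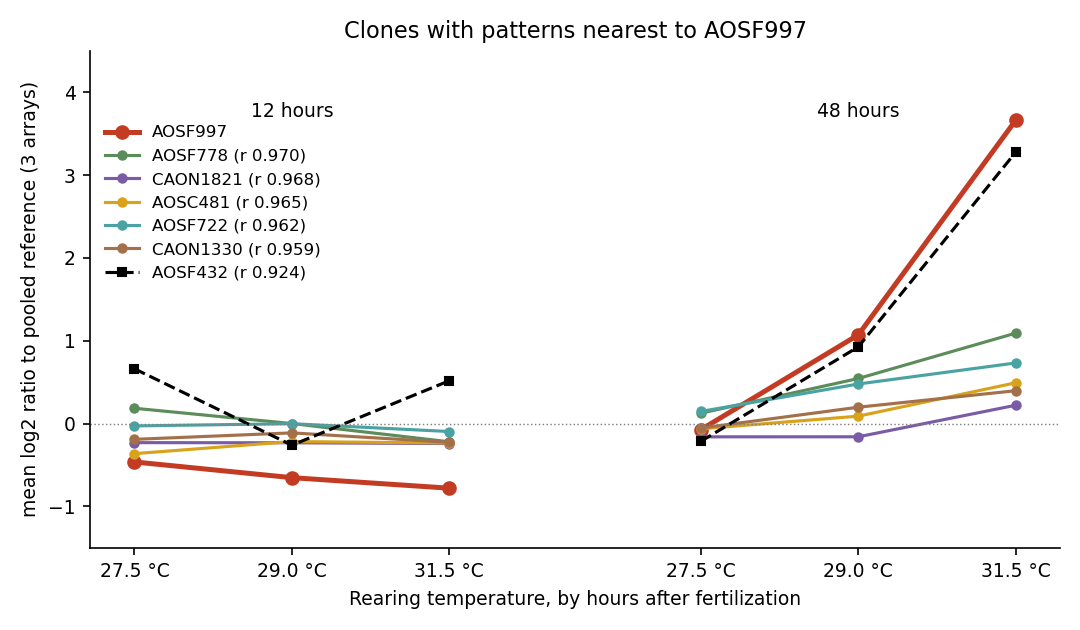
Mean log2 ratio to the pooled reference in each of the 6 conditions, by temperature in °C and hours after fertilization, for AOSF997, the 5 clones with the highest correlation over these means (coloured lines) and AOSF432 (dashed). AOSF997 and AOSF432 reach 3.66 and 3.28 at 31.5°C after 48 hours, where AOSF778 reaches 1.09.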

How the data were processed

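The deposited values are log2 ratios (Cy5 to Cy3), 1 for a clone on an array, which the authors normalized by LOWESS within print tips after quantification in TIGR Spotfinder 2.2.4. The scanner files as deposited hold background-subtracted spot intensity of both channels without clone identifiers, and served for signal levels, for the scale of the table and for counts of unnamed spots. How duplicate spots were combined is not given in the sources used here. The sign follows the dyes of the labels. Sequences of the clones were not analysed here.

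A linear model with the 6 conditions, fitted clone by clone, gave 1 technical SD (12 degrees of freedom) and a 95% interval of each mean. A difference was called where the intervals of 2 conditions did not overlap, the linear counterpart of the credible intervals used by the study, over the 1099 clones with at least 2 arrays in every condition (918 clones had all 18). The arrays are technical, so no p-values are given. Interval calls and limma 3.58.1 (R 4.3.3) were tested on simulated data. Named were AOSF997, the annotated clones of 2 lists, the 2 clones next to AOSF997 in each ranking at 48 hours, and the 5 most and 2 least correlated clones. The member, lists and tests were chosen with earlier results of these data known. Alternatives were array centring and scaling, filters on arrays, the spread of the compared conditions alone, limma's moderated test at a Benjamini-Hochberg threshold of 0.05, a replicate block, linear ratios, other measures of likeness, and leaving out each array. Using only the arrays of 1 image-analysis user was added after seeing the data. Computations used scipy 1.17.1, matplotlib 3.10.9, pandas 2.3.3 and numpy 2.4.6 under Python 3.11.15.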

Additional observations from a re-analysis of the deposited data

Results flagged for a closer look

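For AOSF997 the arrays of a warmer treatment all lay on one side of the mean of the cooler one at 12 hours and all on the other side at 48 hours. For 31.5 against 27.5°C the difference was -0.32 at 12 hours and 3.73 at 48 hours, 4.05 apart, and for 31.5 against 29.0°C it was -0.13 and 2.59, 2.72 apart. At 12 hours the arrays of the temperatures overlapped in both cases, and with the 16 arrays of 1 image-analysis user the difference of 31.5 against 27.5°C at 12 hours was 0.12, without the turn of sign. None of the contrasts between time points in this paragraph or the next was tested, and those of AOSF997 rest on the values that chose it.

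The same turn of sign was seen in other named clones. It was upward with time for soma ferritin (CAON1101), by 0.63 at 29.0°C and 0.54 at 31.5°C, for catalase (AOSF550) at 29.0°C, by 1.34, and for AOSF432 at 29.0°C, by 2.06, with 2 arrays at 27.5°C after 12 hours. At 31.5°C it was upward for AOSF778 by 1.37, methionine sulfoxide reductase (AOSC865) by 1.11, glutathione S-transferase (AOSF483) by 0.57, fibropellin (CAON491) by 0.54, procollagen type V alpha 3 (AOSC914) by 0.49 and DGCR2/IDD (AOSB564) by 0.35. It was downward at 31.5°C for thioredoxin (AOSF1373), at -0.88, and sulfhydryl oxidase (AOSF787), at -0.59. All these values are the difference at 48 hours minus that at 12 hours, each against 27.5°C. Among those measured on all arrays, the compared arrays lay apart at both times only for soma ferritin at 29.0°C, AOSF778 and sulfhydryl oxidase. Those of fibropellin overlapped at both times. At 31.5°C AOSF483, AOSC914 and AOSB564 met the interval criterion at neither time. The share of all clones with such a turn was not counted.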

How the results depend on the processing

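The differences of AOSF997 at 12 hours were called under no alternative run. Those at 48 hours chose the clone, so that their side of the limit supports nothing; with linear ratios averaged, 29.0 against 27.5°C was 1.16 and within it. Scaling the arrays to 1 common median absolute deviation moved the difference of 48 against 12 hours at 31.5°C from 4.44 to 5.02. Leaving out 1 array gave ranges at 12 hours of -0.41 to 0.03 (29.0 against 27.5°C, 0.025 without replicate 1 of 27.5°C), -0.53 to -0.10 (31.5 against 27.5°C) and -0.32 to 0.07 (31.5 against 29.0°C, 0.0695 without replicate 3 of 29.0°C). At 48 hours they were 1.05 to 1.30, 3.62 to 3.83 and 2.44 to 2.68, and for 48 against 12 hours 0.17 to 0.60, 1.54 to 1.92 and 4.33 to 4.54. Its rank for 29.0 against 27.5°C at 48 hours was then 2 to 5.

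With the 16 arrays of 1 image-analysis user, an alternative chosen after seeing the data, the first and the second differences of AOSF997 at 12 hours turned to 0.24 and 0.12, 48 against 12 hours at 27.5°C moved from 0.39, within its limit, to 0.823, past its limit of 0.817, and 1 oxidative stress clone was raised at 29.0°C after 12 hours.

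Counts of called clones moved more; the cause was not tested. For 29.0 against 27.5°C at 12 hours, 197 clones were called, 121 after scaling and 110 with a spread from the compared conditions only (142 to 254 without 1 array). For 31.5 against 27.5°C at 12 hours it was 184, and 72 with that spread (131 to 205). For 31.5 against 29.0°C at 12 hours it was 187, and 121 after scaling (148 to 234). At 48 hours it was 86 for 29.0 against 27.5°C, 145 after scaling and 49 by limma (63 to 104), 256 for 31.5 against 27.5°C and 497 with the spread of the compared conditions (190 to 303), and 197 for 31.5 against 29.0°C (138 to 248).

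Of the oxidative stress clones, 3 lowered at 12 hours and 29.0°C became 5 after centring and 1 after scaling, and at 31.5°C 3 raised and 3 lowered became 1 and 1 with the spread of the compared conditions. Without 1 array, 0 to 2 were raised and 1 to 4 lowered at 29.0°C and 2 to 3 raised and 1 to 4 lowered at 31.5°C after 12 hours, and after 48 hours 3 to 4 and 1 to 2 at 29.0°C, and 3 to 4 and 3 to 5 at 31.5°C. The raised count at 29.0°C after 12 hours moved without replicate 1 of 27.5°C or of 31.5°C. The lowered count fell to 1 without replicate 3 of 27.5°C or 1 of 29.0°C, and that of 31.5°C fell to 1 without replicate 1 of 31.5°C. At 48 hours the lowered counts moved without replicate 1 of 29.0°C (to 2) and, at 31.5°C, without any array of 27.5°C or replicate 1 or 3 of 31.5°C (each to 3). Of the matrix and adhesion clones, the 1 called at 12 hours became 0 at both temperatures with the spread of the compared conditions (1 to 2 at 29.0°C and 0 to 1 at 31.5°C without 1 array). The 0 called at 31.5°C after 48 hours became 1 after centring, 2 after scaling, 1 with that spread and 1 with the replicate block (0 to 1 without 1 array; 0 to 0 at 29.0°C). The replicate numbers did not pair the arrays: same-numbered deviations correlated by 0.02 in the median (-0.18 to 0.27), others by 0.00, and the block changed no other result (31.5 against 27.5°C at 48 hours stayed at 3.73 for AOSF997).

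With 1 RNA sample per condition, no alternative bears on differences between cultures. Signal over background had medians of 2.92 to 8.83 in Cy3 and 3.27 to 14.3 in Cy5, and the missing clones of 27.5°C after 12 hours limit the comparisons at that time.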

Other observations

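The ratios of AOSF997 to the pooled reference were high for a clone of such a pool. If the reference were an equal mixture of the 6 conditions measured, the linear ratios of a clone would average about 1 over them. The average of AOSF997 was 2.96, the highest of the 1099 tested clones, followed by AOSF432 with 2.84, while the median clone had 1.05 and the 95th percentile was 1.38. The condition of 31.5°C after 48 hours alone had a mean linear ratio of 12.7, or 71.6% of the sum of 17.8 over the conditions. The labels describe a pool of 4 time points and the article one of all samples, and the part of the pool's composition in this value was not tested.

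The scanner files, whose spots are unnamed, held few values of the size seen in AOSF997. Among 2231 spots with signal on all 9 arrays of 48 hours, 3 had a log2 difference above 3 between 31.5 and 27.5°C after print-tip loess, from 3.36 to 4.42, and the next was at 2.66. At 29.0°C the same spots differed from 27.5°C by 0.78 to 1.74. Where arrays were centred on their medians instead, 4 spots exceeded 3, from 3.17 to 4.78. The threshold of 3 was chosen after the data were seen, and which of these spots hold AOSF997 was not determined.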
